A study of Mus musculus with 20 samples.

Results

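Livers of mice with liver-specific deletion of Cpt1a and Cpt1b were compared with livers of floxed controls after a 24 h fast, across all genes of a deposited count table. The comparison used 8 of the 20 RNA sequencing libraries of the series, 4 labelled CPT1A;CPT1B liver-specific double KO (here Cpt1DKO) and 4 labelled CPT1A/1B/2 triple floxed control (here Control). Control livers thus carried floxed alleles of Cpt1a, Cpt1b and Cpt2, and the series design calls the controls littermates. Another group, CPT2 liver-specific KO (here Cpt2KO, 4 libraries), was used only where a direct contrast is stated. All groups were fasted for 24 h before the livers were frozen. The driver of the liver-specific deletion, the age of the mice and whether Cpt1DKO livers also carried floxed Cpt2 are not stated in the labels used here. The p-values set a group difference against the spread of libraries within groups, estimated over all 20 libraries. Because nothing in the labels ties each library to an animal of its own, that spread can include technical spread.

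Long-chain fatty acids enter mitochondria as carnitine esters. CPT1 forms these esters at the outer mitochondrial membrane, a translocase carries them across the inner membrane, where CPT2 regenerates acyl-CoA for beta oxidation. Cpt1a encodes the liver form of CPT1 and Cpt1b the muscle form. In fasted liver this pathway feeds ketone body production, fatty acids and their derivatives are ligands of the nuclear receptor PPARα, and fatty acids are also stored as triglyceride in lipid droplets.

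Total counts were 17160129 to 20030055 in Control and 14129595 to 18998588 in Cpt1DKO. All 12 hepatocyte markers were detected, with a summed level of 92790 to 114700 CPM (read counts per library size, which is scaled by TMM factors) in Control and 87140 to 96040 CPM in Cpt1DKO. The 8 libraries shared 1 pattern of sex-linked transcripts, that of males, while Cpt2KO replicate 3 and a library of another group had the female pattern. The 4 Cpt1DKO libraries were not equally far from Control. On the first principal component of log2 CPM, which held 45.5% of the variance of the 8 libraries, Control lay between -29.9 and -22.3, Cpt1DKO replicates 1 and 2 at 41.5 and 50.1, and replicates 3 and 4 at 1.67 and 14. The root mean square log2 distance from the Control mean was 0.586 and 0.644 for replicates 1 and 2 against 0.428 and 0.437 for replicates 3 and 4. Counts of calls and single results are therefore also given without replicates 1 and 2, an alternative chosen after seeing the data. Replicates are named throughout by the numbers in their labels.

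Across 15669 tested genes, edgeR's quasi-likelihood test called 869 at an adjusted p under 0.05, which was 5.55% of the genes. Of these, 383 were higher in Cpt1DKO (2.44%) and 486 were lower (3.1%). The counts of called genes in the lists below are to be read beside these 2 shares. The median log2 fold change over all tested genes was -0.01. The called genes comprised 781 protein-coding genes and 65 long noncoding RNA genes. Among the higher genes 167 changed at least 2-fold, and among the lower genes 200 did. All 4 Cpt1DKO libraries lay above all 4 Control libraries for 325 of the 383 higher genes, and below them for 453 of the 486 lower genes. Over all 15669 tested genes, the 2 groups did not overlap for 2643, of which 778 were called. Calls and overlap rest on the same libraries, so the lack of overlap is a description and no separate support. In 219 of the 383 higher genes, replicates 1 and 2 both lay farther from Control than replicates 3 and 4, and in 33 the reverse held. For lower genes these numbers were 341 and 17 of 486. Without replicates 1 and 2 the test called 69 genes (47 up and 22 down), of which 68 were among the 869. That fit kept only 2 Cpt1DKO libraries, so a lost call does not by itself mean a smaller change. Cd36 lost its call in it (adjusted p = 0.0587) at a log2 fold change of 1.73, against 1.58 with all libraries. Igfbp1 lost its call with a drop to 1.17. The parts of fewer libraries and of smaller changes in the lost calls were not tested. Leaving out 1 library at a time gave 288 and 309 calls when the library was Cpt1DKO replicate 1 or 2, and 1188 and 691 when it was Cpt1DKO replicate 3 or 4. For Control replicates 1 to 4 the numbers of calls were 684, 473, 470 and 481. For a named gene, the number of these 8 fits in which it stayed called is given as, for example, "8 of 8 fits". Of 199 called genes in the lists or among the largest changes, 70 stayed called in 8 of 8 fits, and 27 of these 70 stayed called without replicates 1 and 2.

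Cpt1a was well covered and served as a check of the labels. On GRCm39 it lies on the plus strand of chromosome 19 from 3372334 to 3435733. It stood at 940.1, 1045, 1039 and 1127 CPM in the 4 Control libraries and at 153, 146, 173 and 148 CPM in the 4 Cpt1DKO libraries, in replicate order. Each Cpt1DKO library was far below every Control library, and the Cpt1DKO libraries lay close to each other. The log2 fold change was -2.74 (SE 0.19, adjusted p = 1.38e-08), and it was -2.69 without replicates 1 and 2. Counts are summed over whole genes, so exons that a deletion leaves in place are still counted. Cpt1b, on the minus strand of chromosome 15 from 89300608 to 89310066, was near the floor in both groups, with 5 to 11 reads per Control library and 10 to 17 per Cpt1DKO library. Its level was 0.442, 0.675, 0.763 and 0.293 CPM in Control and 0.993, 1.11, 0.798 and 0.62 CPM in Cpt1DKO, the groups overlapped, and it was not called (adjusted p = 0.34), so that it could not serve as a check of its label. Cpt1c, the brain form, was as low (0.608, 0.608, 0.347 and 0.41 CPM in Control, 0.397, 0.523, 0.718 and 0.789 CPM in Cpt1DKO; adjusted p = 0.805).

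**Figure D1:**
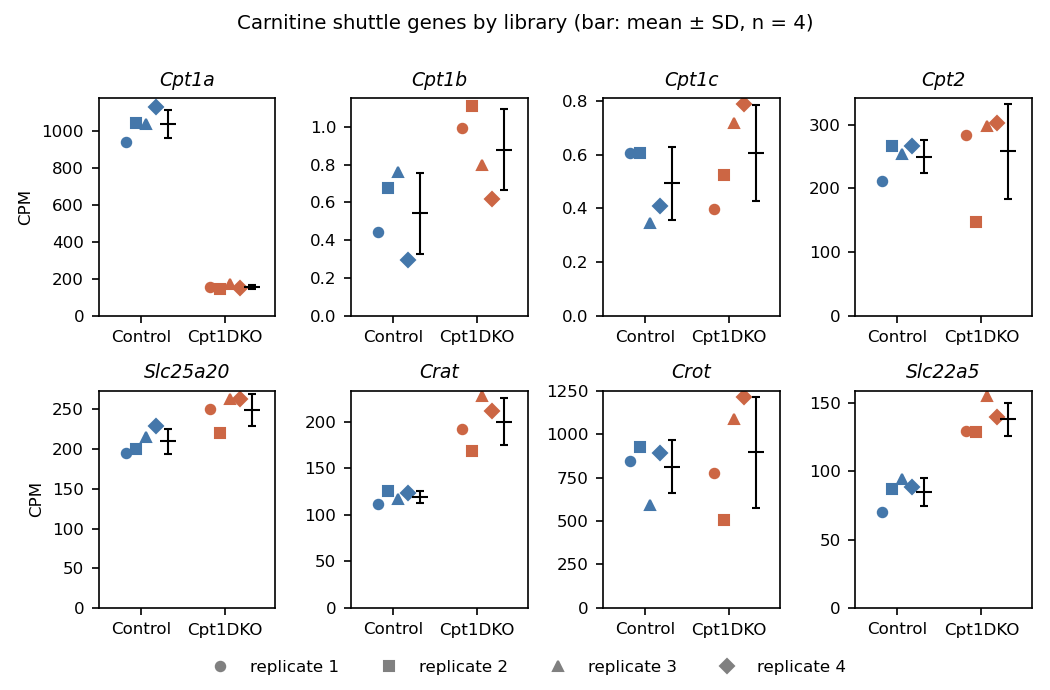
Levels of 8 carnitine shuttle genes in CPM (y axes, each from 0) in the 4 Control and 4 Cpt1DKO libraries (x axis). Points are libraries, with a marker shape for each replicate number, and bars give the mean ± SD of a group. Cpt1a separated the groups with no overlap, Crat and Slc22a5 were higher in every Cpt1DKO library, and Cpt2 was low in Cpt1DKO replicate 2.

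Of the 12 tested genes of the carnitine shuttle, 2 rose, 1 fell (Cpt1a) and 9 were not called. Crat, which transfers acetyl and other short acyl groups to carnitine, stood at 112, 126, 117 and 124 CPM in Control and 193, 168, 227 and 212 CPM in Cpt1DKO. Slc22a5, the carnitine transporter of the plasma membrane, stood at 70.3, 86.7, 94.2 and 88.2 CPM in Control and 129.7, 129, 155 and 139.6 CPM in Cpt1DKO. Neither gene had overlapping groups. Crat rose by 0.74 on the log2 scale (SE 0.18, adjusted p = 0.0214, 5 of 8 fits) and Slc22a5 by 0.70 (SE 0.15, adjusted p = 0.00788, 8 of 8 fits). Cpt2 stood at 211, 267, 254 and 266 CPM in Control and 284, 147, 298 and 302 CPM in Cpt1DKO (adjusted p = 0.916). Cpt1DKO replicate 2 held the lowest Cpt2 level of the 8 libraries, and the other 3 Cpt1DKO libraries lay above all of Control. The translocase gene Slc25a20 (0.25, SE 0.13, adjusted p = 0.274) and Crot, which forms carnitine esters in peroxisomes (0.14, SE 0.31, adjusted p = 0.84), were not called. Among genes of carnitine synthesis, Bbox1 (-0.12, SE 0.14) and Aldh9a1 (0.068, SE 0.13) were not called either. On the authors' length-scaled FPKM, the mean Control level was 146 ± 27.3 for Crot, 133 ± 10.1 for Cpt1a, 102 ± 10.8 for Cpt2, 42.6 ± 3.36 for Slc25a20, 27.1 ± 3.32 for Slc22a5, 21.8 ± 1.16 for Crat and 0.158 ± 0.0626 for Cpt1b. In Cpt1DKO it was 20.1 ± 1.49 for Cpt1a, below the 44.5 ± 3.53 of Slc22a5 and the 36.7 ± 4.34 of Crat.

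Among the 15 largest rises, several were highest in Cpt1DKO replicates 1 and 2. Ppp1r3g, a glycogen-targeting subunit of protein phosphatase 1, stood at 1.27, 1.89, 1.11 and 4.33 CPM in Control and 99.5, 23, 18.4 and 9.58 CPM in Cpt1DKO (log2 fold change 4.11, SE 0.92, adjusted p = 0.0176, 5 of 8 fits). Every Cpt1DKO library was above every Control library, but replicate 1 was more than 4 times the next, and the change was 2.68 without replicates 1 and 2. Dusp8, a phosphatase that inactivates JNK and p38 kinases, stood at 1.11, 1.76, 0.971 and 0.878 CPM in Control and 24.2, 27.1, 3.51 and 8.96 CPM in Cpt1DKO (3.76, SE 0.60, adjusted p = 0.00178, 8 of 8 fits), and was at 2.43 (adjusted p = 0.0526) without replicates 1 and 2. Lepr, the leptin receptor, stood at 11.4, 5.4, 8.25 and 5.97 CPM in Control and 137, 172, 59.1 and 23.6 CPM in Cpt1DKO (3.65, SE 0.68, adjusted p = 0.00588, 8 of 8 fits), and was at 2.41 (adjusted p = 0.177) without them. The same 2 libraries were highest for Dusp8 and Lepr, as for Itga2, an integrin chain that binds collagen (17.4, 31.8, 2.71 and 4.96 CPM against 0.774, 1.42, 1.25 and 0.819 in Control; 3.75, SE 0.87, adjusted p = 0.0198, 2 of 8 fits). Igfbp1, a binding protein of insulin-like growth factors made by fasted liver, stood at 156, 157, 200.2 and 119 CPM in Control and 2917, 2278, 265 and 442 CPM in Cpt1DKO. Its log2 fold change was 3.22 (SE 0.73, adjusted p = 0.0182, 4 of 8 fits) with all libraries and 1.17 (adjusted p = 0.569) without replicates 1 and 2. Atf3, a stress-induced transcription factor, was also highest in replicates 1 and 2 (12.9, 36.4, 2.47 and 6.99 CPM against 1.88, 1.28, 1.18 and 2.28 in Control; 3.13, SE 0.68, adjusted p = 0.0148) and was at 1.53 (adjusted p = 0.372) without them.

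Cidec, Cgref1, Cntnap1, Tubb2a, Osbpl3, Ccdc120 and Apoa4 stayed called without replicates 1 and 2. Cidec, which fuses and enlarges lipid droplets, stood at 20, 25, 22.4 and 29.8 CPM in Control and 325, 366, 213 and 302 CPM in Cpt1DKO, and its change was 3.41 without replicates 1 and 2 (adjusted p = 1.33e-07) against 3.63 with them. Cgref1, a calcium-binding EF-hand protein, stood at 1.77, 2.84, 1.87 and 1.4 CPM in Control and 24.8, 25.9, 17.6 and 26.3 CPM in Cpt1DKO (3.59, SE 0.26, adjusted p = 3.23e-08). Cntnap1, a membrane protein known from the nodes of myelinated nerve fibres, stood at 7.96, 8.57, 8.04 and 6.44 CPM in Control and 86.1, 94.1, 43.6 and 76.5 CPM in Cpt1DKO (3.28, SE 0.26, adjusted p = 2.26e-07). These 3 genes had no overlap between groups and stayed called in 8 of 8 fits. Tubb2a, a beta tubulin, stood at 27.6, 35.5, 17.8 and 16.9 CPM in Control and 258, 268, 59.1 and 174 CPM in Cpt1DKO (2.96, SE 0.42, adjusted p = 0.000748). Its near relative Tubb2b had 0 to 3 reads per Control library and 106, 113, 3 and 15 reads in Cpt1DKO, and reads could have been split between these similar genes. Tubb2b was called in 2 of 8 fits and was at 2.17 (adjusted p = 0.626) without replicates 1 and 2. Osbpl3, a lipid transfer protein of membrane contact sites, stood at 2.6, 2.97, 4.23 and 4.27 CPM in Control and 13.8, 10.1, 33.1 and 28.9 CPM in Cpt1DKO. For Osbpl3 replicates 3 and 4 were the higher ones, and its log2 fold change was 2.61 (SE 0.43, adjusted p = 0.00202) with all libraries and 3.14 (adjusted p = 0.0011) without replicates 1 and 2. Ccdc120 (15.7, 24.5, 4.87 and 7.78 CPM against 2.21, 2.5, 1.25 and 1.93 in Control) completed the 15 largest rises together with Apoa4, Fgf21 and Pdk4, which are described with their pathways. Fgf21 was at 2.63 (adjusted p = 0.0966) and Pdk4 at 1.98 (adjusted p = 0.0587) without replicates 1 and 2.

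The 15 largest falls included Car3, Serpina6 and Inmt, which were lowest in Cpt1DKO replicates 1 and 2. Car3, the cytosolic carbonic anhydrase III, stood at 293, 311, 311 and 364 CPM in Control and 10, 4.97, 93.6 and 34.9 CPM in Cpt1DKO (-3.16, SE 0.74, adjusted p = 0.0225, 5 of 8 fits). Serpina6, the corticosteroid-binding globulin, stood at 85.5, 94, 174 and 106 CPM in Control and 7.55, 5.03, 44 and 17.7 CPM in Cpt1DKO (-2.64, SE 0.64, adjusted p = 0.0245, 4 of 8 fits). Inmt, an N-methyltransferase of indoleamines, stood at 238, 208, 398 and 452 CPM in Control and 12.6, 12.6, 152 and 48 CPM in Cpt1DKO (-2.53, SE 0.67, adjusted p = 0.0382, 1 of 8 fits). In each of these 3 genes replicate 3 was the highest Cpt1DKO library, and none stayed called without replicates 1 and 2 (adjusted p from 0.331 for Serpina6 to 0.199 for Car3, with 0.304 for Inmt). Aox3, an aldehyde oxidase (-2.21, SE 0.57, 1 of 8 fits), Tk1, thymidine kinase (-2.18, SE 0.50, 6 of 8 fits) and Sftpa1, a surfactant collectin (-2.18, SE 0.54, 4 of 8 fits), also fell. Spry4, an inhibitor of growth factor receptor signalling, stood at 20.5, 17.7, 11.4 and 14.5 CPM in Control and 2.12, 3.33, 4.31 and 5.41 CPM in Cpt1DKO (-2.07, SE 0.29, adjusted p = 0.000364), was called in 8 of 8 fits, and was at -1.71 (adjusted p = 0.0281) without replicates 1 and 2. The largest fall by the naming rule, Mup8, rested on 1 library. It stood at 3.26, 1558, 2.57 and 3.98 CPM in Control and 0.331, 1.31, 0.479 and 0.733 CPM in Cpt1DKO, its log2 fold change was -9.07 (adjusted p = 0.0235), and without Control replicate 2 it was -2.16 (adjusted p = 0.225). The genes of the Mup family are near-identical, so its reads could also belong to another member.

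**Figure D2:**
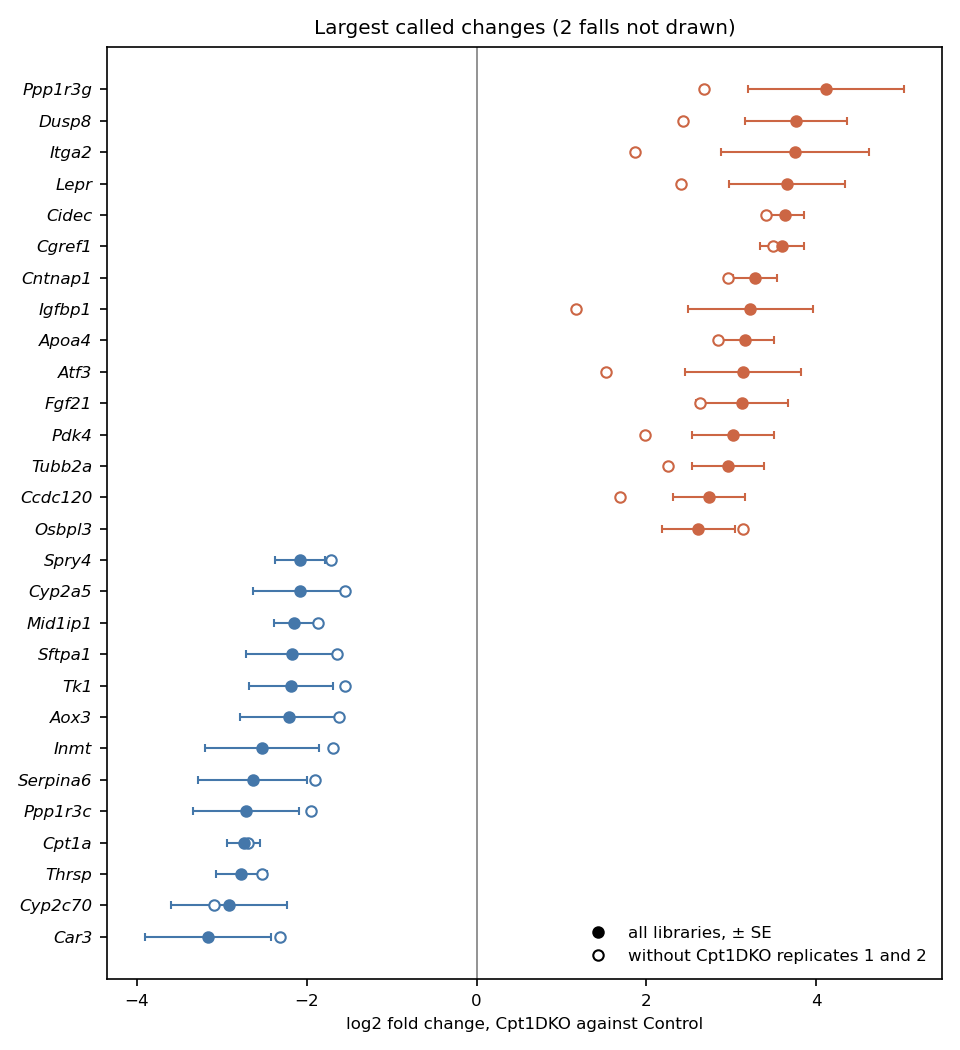
Log2 fold change of Cpt1DKO against Control (x axis) for the 15 largest rises and 13 of the 15 largest falls among called genes (y axis). Filled points are the fit to all libraries with ± SE, and open points the fit without Cpt1DKO replicates 1 and 2. Open points lie nearer to 0 than the filled ones for Igfbp1, Atf3 and Itga2, close to them for Cidec, Cgref1 and Cpt1a, and farther from 0 for Osbpl3 and Cyp2c70.

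Genes of lipid droplets and PPARα targets were called mostly as higher. PPARα binds DNA as a heterodimer with RXR at direct repeats of AGGTCA spaced by 1 base, and its targets cover the oxidation, binding and storage of fatty acids. Of 46 tested PPARα targets, 17 rose (37%, beside 2.44% of all genes) and none fell, and 43 of the 46 values were above 0. The median log2 fold change was 0.71, beside the -0.01 of all genes. Without replicates 1 and 2 the median was 0.65 and 6 genes stayed called as higher, and with 1 library left out 11 to 17 were. Of 14 lipid droplet proteins, 7 rose (50%, beside 2.44% of all genes) and none fell (median 0.77). The count was 4 to 7 when 1 library was left out and 2 without replicates 1 and 2.

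Promoter sequences were taken from RefSeq (build GRCm38.p6, not the GRCm39 of the counts) for 19 of the 21 genes of these lists that rose, as windows of 250 bases before to 50 bases after a start site. Each window was searched on both strands for AGGTCA, any 1 base, AGGTCA, with at most 2 mismatches over the 12 fixed bases. A match was found in 3 of the 22 windows of these genes (13.6%), beside 3.1% of the windows of all tested genes and 3.86% of all 32851 windows. The 3 stretches are shown because they hold these matches, in capitals. The genes were picked from a PPARα target list and a lipid droplet list because they rose, and list members that did not rise were not compared. The shares are thus a description, and their difference was not tested. A match describes the letters only, and binding was not measured here.
Plin2, chr4:86670218-86670309, minus strand: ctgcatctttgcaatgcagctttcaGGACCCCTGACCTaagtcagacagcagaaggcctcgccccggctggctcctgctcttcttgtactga
Cd36, chr5:17835897-17836146, minus strand: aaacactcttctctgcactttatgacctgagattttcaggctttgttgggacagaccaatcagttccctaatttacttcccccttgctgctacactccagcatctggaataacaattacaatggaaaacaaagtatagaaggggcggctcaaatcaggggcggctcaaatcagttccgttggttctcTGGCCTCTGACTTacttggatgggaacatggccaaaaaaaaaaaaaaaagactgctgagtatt
Ucp3, chr7:100472741-100472990, plus strand: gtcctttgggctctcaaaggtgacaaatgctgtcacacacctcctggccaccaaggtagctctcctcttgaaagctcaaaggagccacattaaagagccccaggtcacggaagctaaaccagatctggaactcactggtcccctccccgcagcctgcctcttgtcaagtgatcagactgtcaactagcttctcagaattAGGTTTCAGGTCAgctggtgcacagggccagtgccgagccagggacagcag

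The matches lay 225 to 213 bases before the start in Plin2 and 63 to 51 bases before it in Cd36, both read on the strand opposite to the gene, and 51 to 39 bases before it in Ucp3, read on the strand of the gene. Each had 2 mismatches. The start of the Cd36 window lies inside the RefSeq span of the gene and belongs to one of several start sites. The start of the Plin2 window also lies inside the RefSeq span of its gene. Its printed stretch of 92 bases was cut where that span begins, so it stops short of the start from which the distances are counted. Plin2, the coat protein of hepatocyte lipid droplets, stood at 389, 482, 389 and 558 CPM in Control and 1806, 1415, 1050.4 and 1427 CPM in Cpt1DKO (log2 fold change 1.45 without replicates 1 and 2, adjusted p = 0.0116). Cd36, which takes up fatty acids, stood at 50.8, 29.7, 41.6 and 40.6 CPM in Control and 128, 88.2, 143 and 127 CPM in Cpt1DKO (1.58, SE 0.32, adjusted p = 0.0079, 8 of 8 fits). For both genes every Cpt1DKO library was above every Control library, and for Cd36 replicate 3 was the highest. Ucp3, a mitochondrial carrier known from muscle, had 0, 1, 3 and 4 reads in Control and 6, 6, 13 and 11 reads in Cpt1DKO (adjusted p = 0.0492), and it was called in 0 of 8 fits.

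Among lipid droplet proteins other than Plin2 and Cidec, Hilpda, an inhibitor of the lipase ATGL, stood at 2.65, 2.03, 1.73 and 1.87 CPM in Control and 9.93, 8.83, 4.39 and 6.54 CPM in Cpt1DKO. Hsd17b13, a dehydrogenase on the droplet surface, stood at 423, 469, 485 and 467 CPM in Control and 1017, 1053, 612 and 849.8 CPM in Cpt1DKO (0.94, SE 0.17, 8 of 8 fits), and Hsd17b11, its relative, rose by 0.75 (SE 0.19, 3 of 8 fits). The perilipins Plin5 (0.80, SE 0.23, 2 of 8 fits) and Plin3 (0.66, SE 0.16, 4 of 8 fits) rose too. Of 24 genes of triglyceride synthesis and breakdown, 3 rose (12.5%, beside 2.44% of all genes) and 1 fell (4.17%, beside 3.1%). Pnpla2, which encodes the lipase ATGL, stood at 198, 196, 192 and 211 CPM in Control and 458, 461, 363 and 392 CPM in Cpt1DKO and stayed called without replicates 1 and 2 (adjusted p = 0.0281). Lpin2, a phosphatidate phosphatase, stood at 453, 463, 890.2 and 605 CPM in Control and 1555, 1525, 1108 and 990.3 CPM in Cpt1DKO (1.10, SE 0.21, adjusted p = 0.00347). The lysosomal lipase gene Lipa rose by 0.48 (SE 0.12), and Aadac, a microsomal esterase, fell by 0.74 (SE 0.19). Fabp4, a fatty acid binding protein of fat cells and macrophages, rose from 10.3, 6.08, 8.04 and 5.38 CPM in Control to 27.5, 33.2, 25.5 and 22.4 CPM in Cpt1DKO (1.86, SE 0.37, adjusted p = 0.00742, 8 of 8 fits), and the other tested genes of uptake and binding, apart from Cd36, were not called.

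Of 14 acyl-CoA thioesterases, which release fatty acid from CoA, 4 rose and none fell (median 0.22). Acot1, the cytosolic form, stood at 124, 143, 162 and 155 CPM in Control and 597, 434, 518 and 435 CPM in Cpt1DKO, and the mitochondrial Acot2 at 9.73, 8.71, 14.5 and 16.2 CPM in Control and 59.2, 50.1, 51.9 and 60.5 CPM in Cpt1DKO (2.17, SE 0.36, adjusted p = 0.00212). Levels of Acot1 and Acot2 were even over the 4 Cpt1DKO libraries, and both genes stayed called without replicates 1 and 2 (adjusted p = 0.0011 and 0.041). The 2 genes are near copies, and reads could have been divided between them. Acot8 of peroxisomes (0.47, SE 0.13) and Acot12, which acts on acetyl-CoA (0.40, SE 0.12), rose and were called in 1 and 1 of 8 fits. Of 18 acyl-CoA synthetases, none rose and 2 fell, the medium-chain forms Acsm1 (-0.99, SE 0.28, 2 of 8 fits) and Acsm5 (-0.79, SE 0.23, 1 of 8 fits).

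Oxidation enzymes changed in part. Of 24 mitochondrial acyl-CoA oxidation enzymes, 4 rose and none fell (median 0.15). Besides Acot2 these were Hadhb, the thiolase chain of the trifunctional protein (456, 392, 483 and 491 CPM against 274, 313, 312 and 327 in Control; 0.57, SE 0.12, adjusted p = 0.0102, 8 of 8 fits), Acadl, a long-chain acyl-CoA dehydrogenase (0.51, SE 0.13, 5 of 8 fits), and Acad12 (0.88, SE 0.23, 3 of 8 fits). Of 34 peroxisomal genes, 5 rose and 1 fell (median 0.056). Ehhadh, the bifunctional enzyme of peroxisomal oxidation, stood at 1809.6, 2380.5, 1038 and 1734 CPM in Control and 5997, 3694, 4745 and 5772 CPM in Cpt1DKO. Pex11a, which promotes division of peroxisomes, stood at 149.6, 164, 236 and 216 CPM in Control and 391, 332, 337 and 386 CPM in Cpt1DKO (0.92, SE 0.16, adjusted p = 0.00211). Ehhadh and Pex11a stayed called without replicates 1 and 2 (adjusted p = 0.00299 and 0.0453), while the peroxins Pex16 (0.49, SE 0.13) and Pex3 (0.37, SE 0.10) were called in 1 and 3 of 8 fits. Pecr, the peroxisomal trans-2-enoyl-CoA reductase, went the other way, from 189.9, 217, 197 and 209 CPM in Control to 71.1, 56.4, 124 and 109 CPM in Cpt1DKO (-1.18, SE 0.19, adjusted p = 0.0011, 8 of 8 fits). Of 15 genes of microsomal omega oxidation, 2 rose, Cyp4a14 (0.82, SE 0.20) and Cyp4a10 (0.71, SE 0.17), which have close paralogs, and 2 fell, Cyp4f14 (-1.63, SE 0.26, adjusted p = 0.00152) and the alcohol dehydrogenase Adh4 (-1.01, SE 0.27, 1 of 8 fits). Of 9 genes of ketone body synthesis and export, 2 rose, the ketone body and lactate transporter gene Slc16a1 (68.2, 59, 68.2 and 78.3 CPM against 44.8, 46.8, 35.1 and 44.8 in Control; 0.67, SE 0.16, 5 of 8 fits) and the fasting hormone gene Fgf21 (37.5, 39, 12.9 and 29.1 CPM against 2.65, 3.58, 6.03 and 1.52 in Control).

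Of 17 tested genes for PPARs, their partners the RXRs and their coactivators, none was called (median 0.04). Ppara stood at 189, 198, 269 and 277 CPM in Control and 169.7, 207, 317 and 259.9 CPM in Cpt1DKO (0.031, SE 0.24, adjusted p = 0.96) and Rxra at 805, 854, 776 and 693 CPM in Control and 606, 512, 802 and 743 CPM in Cpt1DKO (-0.23, SE 0.17, adjusted p = 0.45). The groups overlapped for both. Pdk4, the kinase that switches off pyruvate dehydrogenase and a PPARα target, stood at 7.24, 6.08, 13.4 and 7.2 CPM in Control and 88.7, 119, 30.5 and 36.3 CPM in Cpt1DKO, and the other 15 tested genes of pyruvate dehydrogenase control and pyruvate transport were not called. Of 24 other nuclear receptors of liver, 2 fell (8.33%, beside 3.1% of all genes), among them Rara (-0.81, SE 0.24, 1 of 8 fits).

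Genes of glycogen metabolism and glucose entry moved in both directions, and most of those called fell. Of 24 tested, 8 fell and 2 rose (median -0.31), with 4 to 9 lower when 1 library was left out and 2 without replicates 1 and 2. Glucose enters hepatocytes through the transporter encoded by Slc2a2, is phosphorylated, and is stored through glycogen synthase, which phosphatase subunits of the Ppp1r3 family activate. Gckr stood at 215, 263, 259 and 249 CPM in Control and 99.3, 69.9, 136 and 129 CPM in Cpt1DKO (-1.18, SE 0.19, adjusted p = 0.00113, 8 of 8 fits). Slc2a2 stood at 455, 466, 426 and 516 CPM in Control and 209, 142, 359 and 291 CPM in Cpt1DKO (-0.89, SE 0.23, adjusted p = 0.0245, 4 of 8 fits). Khk, ketohexokinase, the first enzyme of fructose use, stood at 267, 289.9, 313 and 299.6 CPM in Control and 105, 85.3, 164 and 123 CPM in Cpt1DKO (-1.30, SE 0.20, adjusted p = 0.000618, 8 of 8 fits). None of Gckr, Slc2a2 and Khk had overlapping groups.

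**Figure D3:**
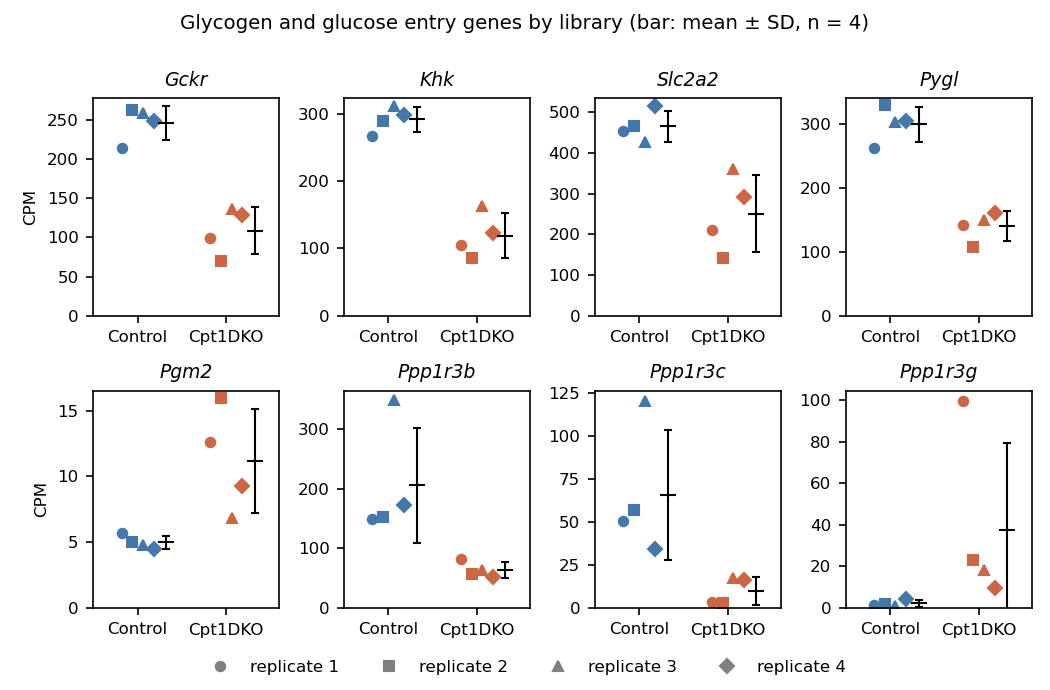
Levels of 8 genes of glycogen metabolism and glucose entry in CPM (y axes, each from 0) in the 4 Control and 4 Cpt1DKO libraries (x axis). Points are libraries, with a marker shape for each replicate number, and bars give the mean ± SD of a group. Ppp1r3b and Ppp1r3c were lower and Ppp1r3g higher in every Cpt1DKO library, and Control replicate 3 stands above the other Control libraries for Ppp1r3b and Ppp1r3c.

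The 3 called genes for glycogen-targeting phosphatase subunits moved in both directions. Ppp1r3b stood at 149, 153, 350.2 and 174 CPM in Control and 82.9, 56.5, 63.6 and 52.6 CPM in Cpt1DKO (-1.69, SE 0.31, adjusted p = 0.00419, 8 of 8 fits). Ppp1r3c stood at 50.6, 57.1, 120.4 and 34.3 CPM in Control and 3.44, 2.62, 17.6 and 16.4 CPM in Cpt1DKO (-2.71, SE 0.62, adjusted p = 0.0192, 5 of 8 fits), while Ppp1r3g rose. On the length-scaled FPKM of the authors, mean levels in Control were 32.6 ± 15.3 for Ppp1r3b, 23.6 ± 13.7 for Ppp1r3c and 0.784 ± 0.546 for Ppp1r3g, and in Cpt1DKO 10.2 ± 2.19, 3.61 ± 2.9 and 13.9 ± 15.4 in the same order. Pygl, the liver glycogen phosphorylase, stood at 263, 329, 303 and 304 CPM in Control and 141, 108, 150.1 and 161 CPM in Cpt1DKO and stayed called without replicates 1 and 2 (-0.94, adjusted p = 0.0344). Pgm2, a member of the phosphoglucomutase family, rose by 1.16 (SE 0.31, 2 of 8 fits). Of 18 genes of gluconeogenesis and its fasting regulators, Slc2a2 alone was called (median -0.061), a share of 5.56% lower beside 3.1% of all genes. Of 20 citric acid cycle genes, Idh1, the cytosolic isocitrate dehydrogenase, alone was called (-0.62, SE 0.18, 2 of 8 fits). That was 5% lower, beside 3.1% of all genes.

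Most called genes of lipid synthesis fell. Mid1ip1, a partner of acetyl-CoA carboxylase, stood at 18.7, 19.8, 19.2 and 27.4 CPM in Control and 4.77, 2.81, 6.47 and 5.24 CPM in Cpt1DKO (-2.14, SE 0.24, adjusted p = 2.40e-05), with all 4 Cpt1DKO libraries below Control. Mlxipl, which encodes the glucose-responsive factor ChREBP, stood at 176, 203, 232 and 245 CPM in Control and 90.3, 82.2, 157 and 121 CPM in Cpt1DKO (-0.93, SE 0.20, 6 of 8 fits). Together with Thrsp, Srebf1 and Acly they were the 5 lipogenic genes of 16 that fell. All but Mlxipl stayed called without replicates 1 and 2, at -1.86 for Mid1ip1, -2.52 for Thrsp, -1.34 for Srebf1 and -0.85 for Acly. Acacb alone rose (159, 183, 118 and 138 CPM against 54.8, 62.4, 48.5 and 63.8 in Control). The cholesterol synthesis and uptake list held 25 tested genes, 24 of them with a value below 0 (median -0.87), and 8 fell. The count was 1 to 13 when 1 library was left out and 0 without replicates 1 and 2, where the median was -0.55. Control itself was spread in this pathway: Msmo1, a sterol oxidase, stood at 56.4, 48.8, 149.5 and 121 CPM in Control and 24.7, 21.3, 44.1 and 32 CPM in Cpt1DKO, and Insig1, which holds back SREBP processing, at 113, 108, 234 and 180.3 CPM in Control and 54.4, 47.6, 85.7 and 64.4 CPM in Cpt1DKO. Among 23 genes of lipoprotein assembly, Apoa4 (6523, 7492, 4311 and 5076 CPM against 872, 922, 398 and 434 in Control) and Mttp, which loads lipid onto apolipoprotein B (0.51, SE 0.12, 4 of 8 fits), rose. Angptl8 (-1.84, SE 0.43, 6 of 8 fits), an inhibitor of lipoprotein lipase, fell, as did the hepatic lipase gene Lipc (-0.90, SE 0.17, 8 of 8 fits). Of 14 genes of fatty acid elongation and desaturation, Elovl5 (1.04, SE 0.24) and Hacd3 (0.53, SE 0.11) rose.

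Interferon-stimulated and antigen presentation genes were called only as lower. Interferons act through STAT factors and IRF9 to induce antiviral genes, and interferon gamma raises the proteins that load peptides onto class I molecules. Of 39 tested, 14 fell (35.9%, beside 3.1% of all genes) and none rose, and 35 had a value below 0 (median -0.67). Irf9, a subunit of the interferon-activated transcription factor, stood at 41.7, 49.7, 47.4 and 44.1 CPM in Control and 29.5, 25, 30.7 and 29.4 CPM in Cpt1DKO (-0.67, SE 0.12, adjusted p = 0.00167, 8 of 8 fits). Isg15, a ubiquitin-like modifier, stood at 9.84, 9.65, 7.56 and 5.68 CPM in Control and 2.91, 1.96, 4.23 and 3.72 CPM in Cpt1DKO (-1.35, SE 0.25, adjusted p = 0.00348, 8 of 8 fits). No Cpt1DKO library of Irf9 or Isg15 reached the Control range, and replicate 2 was the lowest for both. The antiviral genes Mx1 (-1.86, SE 0.35), Ifit3 (-1.17, SE 0.25) and the GTPase Igtp (-1.33, SE 0.27) were called in 8 of 8 fits, and Ifit1, Mx2, Ifi47, Gbp3, Irf7, Irf1 and Psmb8 in 2 to 5. B2m, the light chain of class I molecules, stood at 1450, 1389, 1581 and 1416 CPM in Control and 983, 826, 1020.3 and 1092 CPM in Cpt1DKO (-0.57, SE 0.12, 7 of 8 fits).

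Over the interferon list the median log2 difference from the Control mean was -0.69, -1.11, -0.37 and -0.40 in Cpt1DKO replicates 1 to 4. With 1 library left out 6 to 17 genes were called lower, and without replicates 1 and 2 none was, with a median of -0.46. Immune cell markers were examined beside this: of 18 markers of Kupffer cells and macrophages none was called and 15 had a value below 0 (median -0.19, summed level 576.5 to 1001 CPM in Control, 572.9 to 722.7 CPM in Cpt1DKO), and of 11 tested lymphocyte markers none was called and 9 had a value below 0 (median -0.52, 12.93 to 30.58 CPM against 13.86 to 19.24 CPM). None of 3 tested neutrophil markers was called (median -0.73, 2.282 to 5.087 CPM against 2.384 to 4.949 CPM), and the neutrophil markers Ly6g and Mpo had no reads in the 8 libraries. The part of these cells in the interferon values was not tested. In bulk tissue, fewer cells of a type and less RNA per cell cannot be told apart. Of 21 chemokines and cytokines, 3 fell, Cxcl1 (-1.89, SE 0.47), Cxcl10 (-1.25, SE 0.36) and Il18 (-1.09, SE 0.25), each called in 1 to 6 of 8 fits.

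Among genes of proteins that hepatocytes secrete, those called in the coagulation, complement and carrier lists were all lower. Of 38 genes of coagulation and complement, 10 fell, none rose and 35 had a value below 0 (median -0.54). Cpb2, an inhibitor of clot breakdown, stood at 208, 226, 225 and 200.1 CPM in Control and 94.4, 86, 122 and 107 CPM in Cpt1DKO (-1.07, SE 0.17, adjusted p = 0.00108, 8 of 8 fits). C1s1, a protease of the first complement complex, stood at 401, 468, 449 and 445 CPM in Control and 168, 184, 249 and 258 CPM in Cpt1DKO (-1.04, SE 0.20, adjusted p = 0.00436, 8 of 8 fits), and its partner C1ra fell by 0.65 (SE 0.15, 6 of 8 fits). These 2 genes stayed below Control in every Cpt1DKO library. The others called were Mbl2, C2, F7, Hc, C4bp, Cfi and C4b, from -0.93 for C2 to -0.70 for C4b. Of 22 plasma carriers, 8 fell and none rose (median -0.57). Serpina1c, one of the alpha-1 antitrypsin copies, stood at 900, 985, 1149 and 1140.2 CPM in Control and 445, 377, 476 and 442 CPM in Cpt1DKO (-1.26, SE 0.25, 8 of 8 fits), and reads of these copies cannot be assigned with certainty. Trf, transferrin, stood at 11970, 13515, 13869 and 11940 CPM in Control and 7163, 6699, 8984 and 8563 CPM in Cpt1DKO (-0.71, SE 0.18, 4 of 8 fits).

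Calls in both lists depended on the libraries used. Coagulation and complement held 2 to 15 lower genes with 1 library left out and 0 without replicates 1 and 2 (median -0.33), and carriers held 1 to 10 and 0 (median -0.36). Among 27 acute phase proteins 5 fell, led by Saa4 (42.1, 31.4, 83.5 and 84 CPM against 185, 201, 301 and 201 in Control) and Itih4 (-1.02, SE 0.22, 8 of 8 fits). Of 12 hepatocyte markers, Hpx, the heme carrier hemopexin, alone was called (-0.68, SE 0.16, 4 of 8 fits), and the list had a median of -0.28. Albumin took 5.09, 5.88, 5.07 and 5.66% of all counts in Control and 4.85, 4.65, 4.3 and 4.64% in Cpt1DKO. This lower share stood beside the lower secreted protein genes, and its part in their values was not tested.

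**Figure D4:**
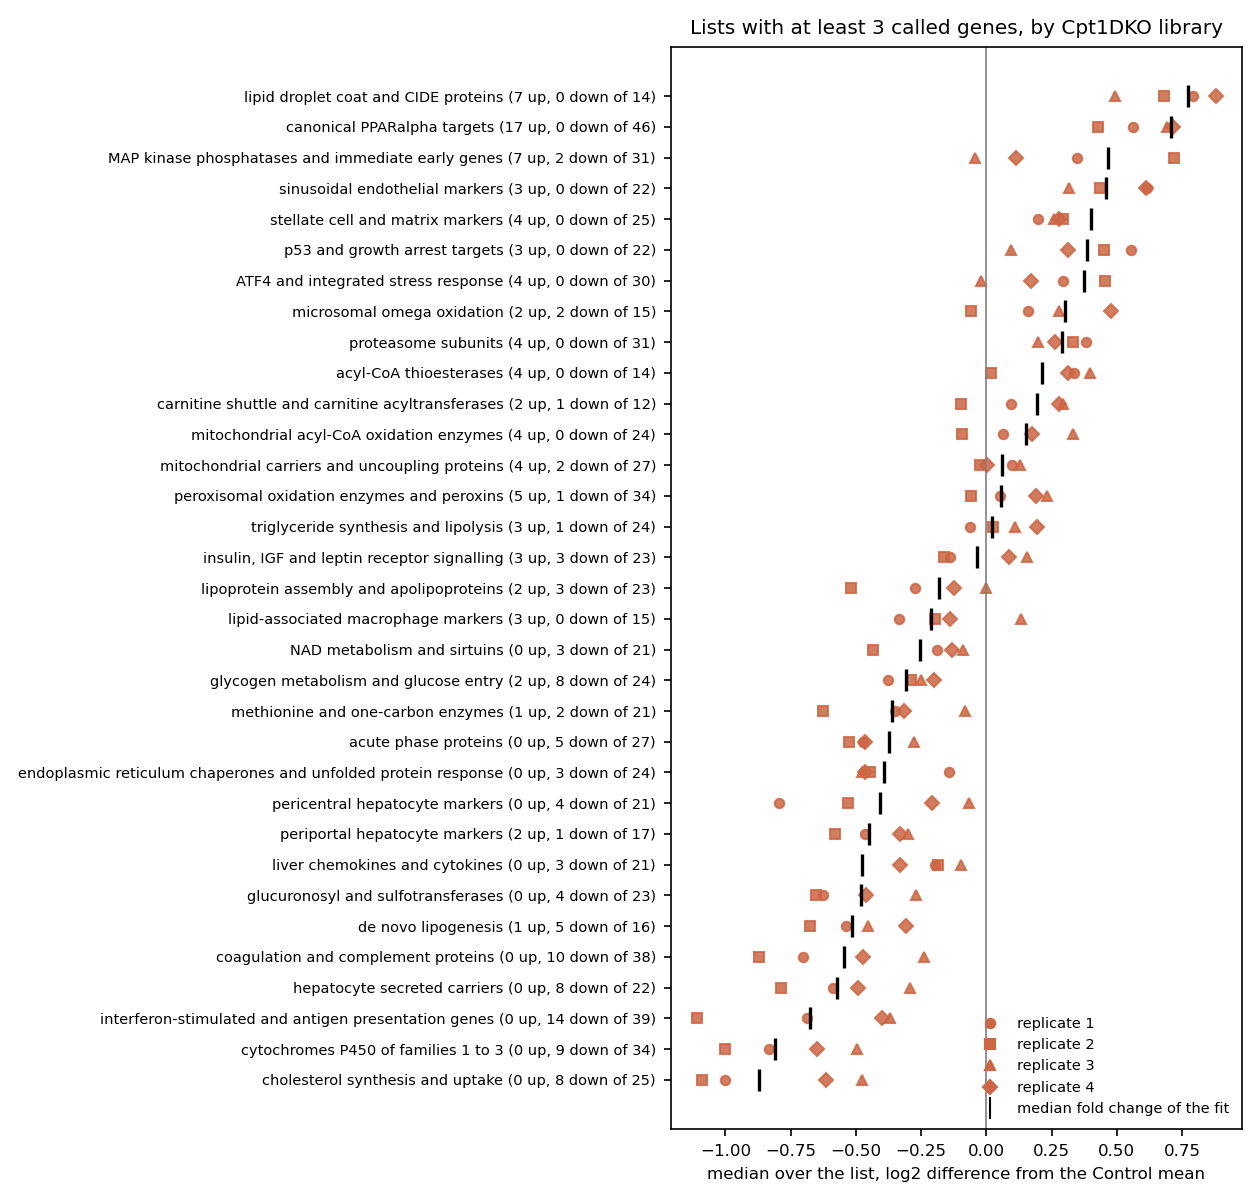
Median log2 difference from the Control mean (x axis) over the tested members of each gene list with at least 3 called genes (y axis, with the number called higher and lower). Marker shapes give the 4 Cpt1DKO libraries and vertical ticks the median fold change of the fit. Replicate 2 is lowest for cholesterol synthesis, interferon and coagulation genes (-1.09, -1.11 and -0.87), replicate 3 nearer to 0, and PPARα targets lie between 0.43 and 0.71 in all 4.

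Enzymes of drug and steroid metabolism were called only as lower. Of 34 cytochromes P450 of families 1 to 3, 9 fell, none rose and 30 had a value below 0 (median -0.81). Cyp1a2, which oxidizes caffeine and aromatic amines, stood at 264, 299, 309.8 and 353 CPM in Control and 102, 77, 119 and 127 CPM in Cpt1DKO (-1.53, SE 0.26, adjusted p = 0.00211, 8 of 8 fits). Cyp3a11, the main mouse form of the drug-metabolizing family 3, stood at 3503, 3634, 2596 and 2808 CPM in Control and 1014, 1071, 1166 and 1621 CPM in Cpt1DKO (-1.36, SE 0.32, adjusted p = 0.0187, 5 of 8 fits). Cyp2c70, which hydroxylates bile acids to muricholic acids in mice, stood at 38.3, 42.1, 55.7 and 28.5 CPM in Control and 5.76, 6.34, 4.95 and 4.68 CPM in Cpt1DKO, the largest fall of the list (-2.92, SE 0.68, 4 of 8 fits). Cyp2c70 was even over the Cpt1DKO libraries, while Cyp2a5, a coumarin hydroxylase (209, 201, 668 and 396 CPM against 1345, 1571, 2088 and 1215 in Control), and Cyp2c50 (152, 103, 339 and 231 CPM against 551, 609, 800.4 and 899 in Control) were highest in replicate 3. The family 2 genes have close paralogs and their single values are uncertain. The list held 2 to 10 lower genes with 1 library left out and 0 without replicates 1 and 2 (median -0.66). Of 23 glucuronosyl and sulfotransferases, 4 fell and none rose, Sult5a1, Ugt2b36, Sult1b1 and Papss2, which makes the sulfate donor (-0.69, SE 0.20), with 0 to 6 lower when 1 library was left out.

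Few genes of nitrogen, one-carbon and bile acid metabolism were called, although most values were below 0. Of 48 amino acid breakdown enzymes, 41 had a negative value (median -0.34), but 1 fell and 1 rose. Each was 2.08% of the list, beside 3.1% lower and 2.44% higher over all genes. Prodh, the proline dehydrogenase, fell (134, 150.4, 259 and 192 CPM against 293, 356, 361 and 339 in Control, log2 fold change -0.88, SE 0.19, 6 of 8 fits). Gpt2, the mitochondrial alanine aminotransferase, rose (1668, 1719.8, 1557 and 1869.8 CPM against 966, 1115, 1187 and 1034 in Control; 0.66, SE 0.13, 8 of 8 fits). Otc, of the urea cycle, stood at 377, 394, 355 and 373 CPM in Control and 136, 83.6, 195 and 204 CPM in Cpt1DKO (-1.28, SE 0.32, 2 of 8 fits) and alone of 14 genes was called. Of 21 methionine and one-carbon enzymes, Aldh1l1 (-1.16, SE 0.31, 2 of 8 fits) and Shmt1 (-0.69, SE 0.19, 3 of 8 fits) fell. Abcb11, the bile salt export pump, stood at 401, 434, 303 and 304 CPM in Control and 163, 97.3, 157 and 177 CPM in Cpt1DKO. It was the 1 called gene of 22 in bile acid synthesis and transport (-1.28, SE 0.35, adjusted p = 0.0426), and it lost its call in each of the 8 fits. Of 21 genes of NAD metabolism, 3 fell (14.3%, beside 3.1% of all genes). They were Aox3, Sirt7 (-0.65, SE 0.19) and Nampt, the main enzyme of NAD salvage (-0.56, SE 0.16, 3 of 8 fits). Of 27 NRF2 target and glutathione genes, Gsta4 (-1.28, SE 0.17) and Gsta3 (-1.07, SE 0.22) fell in 8 of 8 fits and none rose.

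Several signalling and stress genes rose, with the highest levels in Cpt1DKO replicates 1 and 2. Of 31 MAP kinase phosphatases and immediate early genes, 7 rose and 2 fell (median 0.47). The list's median difference from Control was 0.35 and 0.72 in replicates 1 and 2 and -0.045 and 0.12 in replicates 3 and 4. Fosb, a subunit of the AP-1 factor, had 5, 10, 1 and 5 reads in Control and 42, 112, 8 and 15 reads in Cpt1DKO, and Klf6, a zinc finger factor, stood at 12.2, 6.95, 12.3 and 6.44 CPM in Control and 48.3, 72.6, 11.3 and 20.5 CPM in Cpt1DKO (4 of 8 fits). Ier3 (1.73, SE 0.49, 2 of 8 fits), Fosl2 (0.89, SE 0.26, 2 of 8 fits) and Jund (0.71, SE 0.16, 6 of 8 fits) rose too, and Fosb was called in 3 of 8 fits. With 1 library left out, 1 to 9 genes of the list were called higher, and 0 were without replicates 1 and 2. Dusp6, the phosphatase of ERK kinases, went the other way, from 58.3, 68.4, 48.1 and 68.5 CPM in Control to 19.3, 32.2, 21.1 and 26.4 CPM in Cpt1DKO (-1.30, SE 0.18, adjusted p = 0.000363, 8 of 8 fits), as did Spry4. Dusp6 and Spry4 were the 2 genes of this list that stayed called without replicates 1 and 2. Of 30 genes of the ATF4 response, 4 rose and none fell (median 0.37; 0.29, 0.45, -0.021 and 0.17 in replicates 1 to 4): Atf3, Fgf21, Gdf15, a stress hormone (27, 17.3, 3.19 and 15.6 CPM against 2.05, 2.9, 5.96 and 1.93 in Control), and Atf5 (0.77, SE 0.19). Gdf15 in replicate 3 lay within the Control range, and Atf5 was higher in Cpt1DKO replicate 4 (730.7 CPM) than in replicate 2 (699.4 CPM).

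Of 22 p53 and growth arrest targets, 3 rose (median 0.39). Cdkn1a, the cell cycle inhibitor p21, stood at 14.9, 17.3, 27.6 and 5.79 CPM in Control and 104, 93.9, 16.2 and 62.6 CPM in Cpt1DKO (2.08, SE 0.58, adjusted p = 0.0451, 1 of 8 fits), with replicate 3 inside the Control range. Gadd45b (25.1, 29.9, 11.3 and 13.6 CPM against 2.88, 2.36, 7.63 and 3.8 in Control; 8 of 8 fits) and Btg2 (1.19, SE 0.32, 3 of 8 fits) rose. Of 25 cell cycle genes, Cdk4 (42.4, 43.4, 47.2 and 40.7 CPM against 25.8, 28.4, 30.4 and 28.6 in Control; 0.62, SE 0.11, adjusted p = 0.00221) and E2f8 (1.19, SE 0.30) rose. Of 16 heat shock genes, Hspb1, a small chaperone, rose (82.6, 67.9, 27.4 and 37.5 CPM against 15.6, 12.6, 15.6 and 17.3 in Control; 5 of 8 fits), and the list's median difference was 0.68 and 0.86 in replicates 1 and 2 against -0.17 and 0.18 in replicates 3 and 4. Chaperones of the endoplasmic reticulum went the other way, with 3 of 24 lower and none higher (median -0.39). Edem1, which sends misfolded glycoproteins to degradation, stood at 158, 168, 184 and 170.2 CPM in Control and 96.5, 90.2, 100.1 and 106 CPM in Cpt1DKO (-0.79, SE 0.12, adjusted p = 0.000485) and stayed called without replicates 1 and 2, while Pdia6, a disulfide isomerase (-0.84, SE 0.20), and Sec61b of the translocon (-0.56, SE 0.15) lost their calls at folds of similar size (-0.88, adjusted p = 0.195, and -0.59, adjusted p = 0.247).

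Receptor and hormone genes of the insulin and growth hormone axis moved both ways. Of 23 tested, Lepr, Igfbp1 and Igf1r (0.85, SE 0.24, 3 of 8 fits) rose and Enho, Ghr and Pik3r1 fell. Ghr, the growth hormone receptor, stood at 407, 416, 459 and 423 CPM in Control and 164, 133, 274 and 209 CPM in Cpt1DKO (-1.13, SE 0.22, adjusted p = 0.00436, 8 of 8 fits). Enho, which encodes the secreted peptide adropin, stood at 27.9, 30.9, 22 and 18 CPM in Control and 6.29, 3.6, 6.94 and 9.02 CPM in Cpt1DKO (-1.93, SE 0.35, adjusted p = 0.00297, 8 of 8 fits). Every Cpt1DKO library was below Control for both. Without replicates 1 and 2 none of the 6 stayed called, with Ghr at -0.82 (adjusted p = 0.195) and Enho at -1.62 (adjusted p = 0.125). Of 24 sex-biased genes that respond to growth hormone, none was called (median -0.69), and the 2 most abundant, Mup3 (-0.54, SE 0.42) and Mup7 (-1.23, SE 1.39), had wide errors. Bhlhe40, a repressor in the circadian clock, fell from 86.3, 89.1, 113 and 124 CPM in Control to 26.6, 52.1, 53.1 and 38.5 CPM in Cpt1DKO (8 of 8 fits), one of 2 called among 17 clock genes.

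Of 31 proteasome subunits, 4 rose (12.9%, beside 2.44% of all genes), none fell and 30 had a positive value (median 0.29). Psmd4, a ubiquitin receptor of the proteasome, stood at 118, 130.3, 116 and 124 CPM in Control and 234, 229, 186 and 197 CPM in Cpt1DKO (0.79, SE 0.14, adjusted p = 0.00179, 8 of 8 fits), Psmd8 rose by 0.79 (SE 0.19), Psmb5 by 0.56 (SE 0.14) and Psmb4 by 0.46 (SE 0.13), the last with no call in any of the 8 fits. Of 50 cytosolic ribosomal proteins 47 had a positive value and none was called (median 0.20), and none of 43 nuclear-encoded respiratory chain genes (median -0.083) or 13 mitochondrial transcripts (median -0.11) was called. Of 27 mitochondrial carriers, 4 rose (14.8%, beside 2.44% of all genes) and 2 fell (7.41%, beside 3.1%). None of the 6 stayed called without replicates 1 and 2. Slc25a22, Slc25a47, Slc25a30 and Ucp3 rose, and Slc25a23 (-1.13, SE 0.28, 3 of 8 fits) and Slc25a45 (-0.86, SE 0.20, 6 of 8 fits) fell. Slc25a47, a carrier made in liver, stood at 724, 733, 920.4 and 881 CPM in Control and 1649.7, 1677, 1162 and 1365 CPM in Cpt1DKO (0.85, SE 0.23, 1 of 8 fits).

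Markers of other liver cells were examined beside these changes. Of 25 tested stellate cell and matrix markers, 4 rose and none fell (median 0.40), with a summed level of 2123 to 2576 CPM in Control and 2174 to 2271 CPM in Cpt1DKO. Col4a1, a chain of basement membrane collagen, stood at 47.3, 38.1, 26.4 and 23 CPM in Control and 86.3, 77.9, 56.4 and 77.4 CPM in Cpt1DKO (1.14, SE 0.20, adjusted p = 0.00178, 8 of 8 fits), and its partner Col4a2 rose by 0.94 (SE 0.19, 8 of 8 fits). Pdgfra (0.77, SE 0.20, 2 of 8 fits) and Dcn (0.48, SE 0.13, 3 of 8 fits) also rose. Of 22 sinusoidal endothelial markers, 3 rose, none fell and 21 had a positive value (median 0.46; summed level 483.4 to 988.7 CPM in Control, 775.8 to 981.5 CPM in Cpt1DKO). Oit3 stood at 41.9, 20.7, 20.7 and 17.4 CPM in Control and 49.3, 45.7, 35.4 and 48.9 CPM in Cpt1DKO, with Control replicate 1 the highest of its group, as for Pecam1 (33.2, 15.3, 18.8 and 14.3 CPM in Control, 42, 44.5, 31.1 and 29.9 CPM in Cpt1DKO). Rspo3, a Wnt signal enhancer of endothelial cells, rose by 0.89 (SE 0.22, 3 of 8 fits). Without Control replicate 1, 12 of the 22 were called higher, and 0 to 6 were in the other 7 fits that leave out 1 library. Of 15 markers of lipid-associated macrophages, Gpnmb, Fabp4 and Cd9 rose (median -0.21; summed level 70.81 to 96.65 CPM in Control, 85.6 to 107.9 CPM in Cpt1DKO). Gpnmb had 7, 8, 1 and 0 reads in Control and 33, 35, 10 and 26 in Cpt1DKO. Of 8 tested cholangiocyte markers and 6 tested erythroid transcripts none was called. No marker of endothelial, stellate or macrophage lists was at 0 in all 8 libraries, and the part of these cells in other results was not tested. Of the zonal hepatocyte markers, 4 of 21 pericentral ones fell and none rose (Cyp1a2, Cyp2c50, Rgn and Gulo). Of 17 periportal ones 2 rose (Apoa4 and Hsd17b13) and 1 fell (Ctsc). Most values were below 0 in both lists, 17 of 21 pericentral (median -0.41) and 13 of 17 periportal (median -0.45). Without Cpt1DKO replicates 1 and 2, 0 pericentral markers were called, and 1 periportal marker was called higher and 0 lower.

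Loss of Cpt2 in the same fasted setting gave a direct contrast that does not use Control. Cpt1DKO was higher than Cpt2KO for 1051 genes (6.71%) and lower for 1161 (7.41%), with a median log2 fold change of 0.0023 over all tested genes. PPARα targets were lower in Cpt1DKO than in Cpt2KO for 18 of 46 genes and higher for 1 (median -0.49), and lipid droplet proteins were lower for 8 of 14 and higher for none (median -0.66). Means are given ± SD over 4 libraries. Pdk4 averaged 68.5 ± 42.4 CPM in Cpt1DKO and 769.7 ± 187 CPM in Cpt2KO, beside 8.47 ± 3.32 CPM in Control (Cpt1DKO against Cpt2KO -3.49, SE 0.48, adjusted p = 0.000243). Acot2 averaged 12.3 ± 3.63 CPM in Control, 55.4 ± 5.21 in Cpt1DKO and 357 ± 145 in Cpt2KO (-2.69, SE 0.36, adjusted p = 0.000179). Cidec averaged 302 ± 64.8 CPM in Cpt1DKO and 479.5 ± 95.9 in Cpt2KO, a smaller gap (-0.67, SE 0.20, adjusted p = 0.0297). Cyp4a14 (0.025, SE 0.19, adjusted p = 0.95) and Cyp4a10 (0.15, SE 0.17, adjusted p = 0.603) did not pass the test between these groups.

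**Figure D5:**
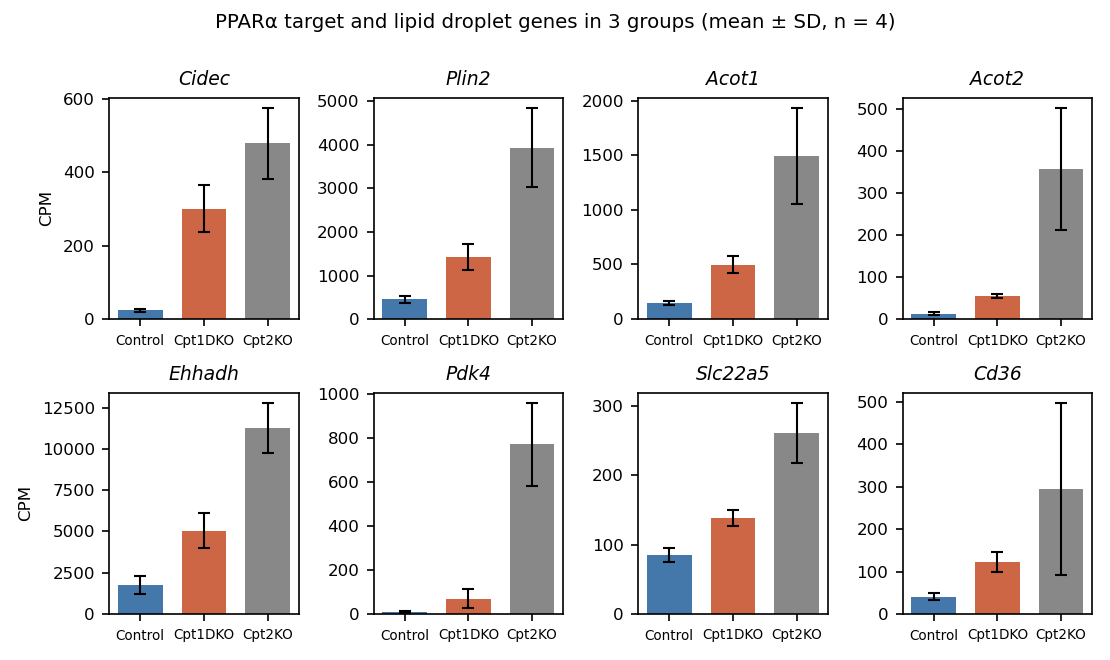
Mean level in CPM (y axes, each from 0) of 8 PPARα target and lipid droplet genes in Control, Cpt1DKO and Cpt2KO (x axis), with error bars of 1 SD over 4 libraries. Cpt1DKO lies between Control and Cpt2KO for each gene, nearer to Cpt2KO for Cidec and nearer to Control for Pdk4 and Acot2.

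Several lists in which most values were below 0 against Control lay on the other side in this contrast. Amino acid breakdown enzymes were higher in Cpt1DKO than in Cpt2KO for 23 of 48 genes and lower for none (median 0.59), methionine and one-carbon enzymes for 11 of 21 (0.55), coagulation and complement genes for 14 of 38 (0.45), bile acid genes for 7 of 22 (0.63) and interferon and antigen presentation genes for 9 of 39 (0.44), with none lower in any of these lists. Other lists differed. Acute phase proteins were higher in Cpt1DKO for 14 of 27 genes and lower for 3, and hepatocyte markers higher for 1 of 12. NRF2 target and glutathione genes were higher for 1 of 27 and lower for 6, and citric acid cycle genes lower for 2 of 20. Abcb11 averaged 149 ± 35.1 CPM in Cpt1DKO and 28.2 ± 18.4 CPM in Cpt2KO, beside 360.5 ± 67.3 CPM in Control (2.40, SE 0.37, adjusted p = 0.000496). Ppp1r3b averaged 206 ± 96.5 CPM in Control, 63.9 ± 13.5 in Cpt1DKO and 16 ± 6.61 in Cpt2KO (2.00, SE 0.32, adjusted p = 0.000595). Gpnmb averaged 1.68 ± 0.695 CPM in Cpt1DKO and 38 ± 13.7 in Cpt2KO (-4.47, SE 0.38, adjusted p = 1.17e-06). Cytosolic ribosomal proteins were lower in Cpt1DKO for 31 of 50 genes and higher for none (median -0.51). Mid1ip1 (-0.021, SE 0.24, adjusted p = 0.968), Elovl5 (0.031, SE 0.23, adjusted p = 0.949) and Atf5 (-0.027, SE 0.19, adjusted p = 0.945), which had changed against Control, did not pass the test between Cpt1DKO and Cpt2KO. Bhlhe40 (-1.14, SE 0.27, adjusted p = 0.00906) was lower and Fosb (2.43, SE 0.76, adjusted p = 0.0379) and Slc25a22 (0.85, SE 0.22, adjusted p = 0.0132) were higher in Cpt1DKO than in Cpt2KO. The 2212 calls of this contrast became 1192 without Cpt2KO replicate 2, 1337 without Cpt1DKO replicate 4, 1435 without Cpt1DKO replicate 1, 1472 without Cpt1DKO replicates 1 and 2, and 2517 without Cpt2KO replicate 3, the library of a female pattern.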

How the data were processed

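Liver RNA of 20 libraries in 5 groups of 4 was sequenced. Reads were aligned with HISAT2 to GRCm39/mm39, per the submitters' processing notes, and the authors deposited 1 table of read counts per gene with FPKM values. No source used here names the counting tool, strand setting or annotation release, so reads of overlapping genes and close copies cannot be told apart. FPKM values deposited by the authors were used only to compare levels between genes. A deposited table of the authors' log2 fold changes and adjusted p-values was used only for a count of shared calls.

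The 56748 genes were filtered with filterByExpr (minimum count 10), leaving 15669. edgeR 4.0.16 in R 4.3.3 (TMM factors, robust quasi-likelihood test) was fitted to all 20 libraries by group, which share 1 estimate of the spread, and p-values were adjusted by Benjamini-Hochberg over all tested genes. The SE of a log2 fold change was its size divided by the square root of F. Genes were called at an adjusted p under 0.05. The code of the test was run on simulated counts with the same dispersion for all genes and no unequal libraries within a group. That run checked the code only and cannot speak to the unequal Cpt1DKO libraries. Alternatives used DESeq2 1.42.0, other filters and factors, fewer libraries and a replicate block.

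The text names the 15 largest rises and 15 largest falls among called genes that code for protein, average 5 CPM or more and have a regular symbol and groups that do not overlap, all carnitine shuttle genes, and called members of 65 gene lists (for a list with no call, the 2 with the highest mean). Gpnmb, Fosb and Tubb2b counts are given as reads because they are few. Counts cover all genes, but some named genes are not reported here. Members and lists were chosen with earlier results of these data known. Per-library list medians used log2 CPM with a pseudocount of 0.5. Replicate numbers did not pair the samples: residuals of equal numbers correlated at 0.055, -0.15, -0.032 and -0.05.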

Additional observations from a re-analysis of the deposited data

Results flagged for a closer look

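Of 452 pairs of a named gene and a group, 18 (3.98%) had 1 library whose gap to its nearest neighbour exceeded Dixon's 95% critical value as a share of the group's range. Chance flags about 1 group in 20.

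In Control, replicate 3 stood apart for 4 genes: Ppp1r3b at 350 CPM (others 149 to 174), Pdk4 at 13.4 (6.08 to 7.24), Saa4 at 301 (185 to 201) and Papss2 at 170 (206 to 211). Replicate 1 stood apart for Oit3 at 41.9 CPM (17.4 to 20.7), F7 at 111 (133 to 135), Serpina1d at 2260 (2580 to 2610) and Psmb4 at 158 (168 to 170). Replicate 4 was high for Mid1ip1 at 27.4 CPM (18.7 to 19.8) and Aldh9a1 at 378 (340 to 346). Replicate 2 held 1560 CPM of Mup8, where the others held 2.57 to 3.98.

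In Cpt1DKO, replicate 2 was low for Cpt2 at 147 CPM (284 to 302) and Psmb4 at 219 (231 to 234) and high for Ier3 at 6.21 (1.52 to 2.32). Replicate 1 was high for Ppp1r3g at 99.5 CPM (9.58 to 23) and Slc22a21 at 1.39 (0.878 to 0.958). Replicate 3 was high for Rps2 at 673 CPM (568 to 577), and replicate 4 for Sult5a1 at 14.7 (5.75 to 7.09).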

How the results depend on the processing

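The Cpt1a fall kept its direction and call in every alternative run, from -2.69 to -2.80. The 869 calls against Control became 1443 with DESeq2 (664 higher, 779 lower), 1442 with only the 8 libraries compared, 1581 without both libraries of a female pattern, 288 to 1188 with 1 library left out, and 69 without Cpt1DKO replicates 1 and 2. The 2212 calls against Cpt2KO became 1344 with only the 8 libraries compared, 1192 to 2517 with 1 library left out, and 1472 without Cpt1DKO replicates 1 and 2. The cause was not tested. Replicate numbers did not pair the samples. With a replicate block, 816 genes were called against Control with all libraries and 1220 with the 8 compared, and 2081 and 1354 against Cpt2KO. For named genes, 2467 alternative values kept their direction and call and 891 kept only the direction. Single calls moved both ways with only the 8 libraries compared. Abcb11 (adjusted p = 0.00413) and Psmb4 (adjusted p = 0.00482), which lost their calls with any 1 library left out, were called there. Igfbp1 (adjusted p = 0.0514), Car3 (adjusted p = 0.0697) and Inmt (adjusted p = 0.127) were not. Of the list medians, 38 moved by more than the spread between libraries and 1067 did not. Genes with few reads, such as Cpt1b, Cpt1c and Ucp3, were limited by depth.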

Other observations

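The authors' deposited table for this comparison lists 25432 genes and holds 2153 with an adjusted p under 0.05, 988 higher and 1165 lower in Cpt1DKO. Of these, 2141 were tested here. The fit to all libraries and the authors' deposited table shared 854 calls in the same direction, and 15 of the 869 genes called here were not called there.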
